A study of Homo sapiens with 16 samples.

Results

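The transcriptional response to the small molecule CS1 was described across genes in NOMO-1, a human cell line of acute monocytic leukaemia. Cells given 100 nM CS1 for 72 h (3 libraries) were compared with cells given the solvent DMSO for 72 h (4 libraries). These 7 libraries were chosen by their labels from the 16 libraries of the series. The others came from cells given 500 nM CS2 for 72 h (3 libraries, with the same DMSO libraries as controls), from cells with a lentiviral hairpin against FTO (shFTO, 3 libraries) and from cells with its control hairpin (shNS, 3 libraries), both selected with puromycin. All cells were of this single line, and cells given a compound or DMSO carried no hairpin. The series presents CS1 and CS2 as inhibitors of FTO, an enzyme that takes m6A, a methyl mark, off RNA. The labels carry the compound names alone. From general knowledge, not checked here, CS1 is bisantrene, an anticancer drug known to act on DNA and topoisomerase II, and CS2 to be brequinar, an inhibitor of pyrimidine synthesis.

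Monocytic leukaemia cells are held at an immature stage. When such cells mature, they are known to take up genes of adhesion, phagocytosis and inflammation and to leave the cell cycle, for which the inhibitor p21 is one brake. Growth is tied to ribosome production in the nucleolus and to lipid synthesis, whose genes are driven by the SREBP transcription factors, while lysosome genes are driven by TFEB and its relatives.

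RNA enriched for poly(A) was measured, and levels are in TPM, the relative abundance of a gene's transcripts with all libraries set to one total. Of 26830 entries, 14951 had at least 1 TPM in at least 3 of the 16 libraries and were tested with limma on log2(TPM + 1). A gene is said to rise or fall where its p value, adjusted over all tested genes, was under 0.05. Fold changes are given as differences of mean log2(TPM + 1), CS1 minus DMSO, a scale on which genes with low levels seem to change less than they do. The SD follows each ± (n = 3 for CS1 and n = 4 for DMSO). TPM holds no read counts, so the depth and the counting error of each value are unknown. In RNA from whole cultures, fewer cells of a kind and less RNA per cell cannot be told apart. NOMO-1 markers were present: CD33, a myeloid surface receptor, averaged 94.4 ± 1.94 TPM with CS1 and 67.9 ± 1.59 TPM with DMSO, and the myeloid transcription factor SPI1 averaged 153 ± 2.45 TPM with CS1 and 128 ± 0.763 TPM with DMSO. The monocyte receptor CD14, the stem cell marker CD34 and the granule enzyme MPO were below the filter.

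The 7 libraries fell into their labelled groups. Across genes, Pearson's r lay between 0.991 and 0.992 among CS1 libraries and between 0.991 and 0.992 among DMSO libraries, against 0.973 to 0.981 between CS1 and DMSO. CS1 replicate 3 stood somewhat closer to DMSO: over the 497 genes changed at least 2-fold, its median shift in the direction of change was 1.18 on the log2 scale, against 1.36 and 1.40 in the other CS1 libraries. Entries of ribosomal RNA took 1.04% to 1.34% of TPM with CS1 and 1.77% to 4.58% with DMSO, so TPM of all other genes share a slightly larger total with CS1. FTO itself stood at 35.0, 35.9 and 31.3 TPM with CS1, against 33.3, 33.1, 29.6 and 30.7 TPM with DMSO. These values overlap, and the difference did not pass (0.10, SE 0.056, adjusted p = 0.141), although without CS1 replicate 3 it did (0.16, adjusted p = 0.0274).

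After 72 h of CS1, 7747 genes passed (51.8% of those tested), of which 5605 were higher (37.5%) and 2142 were lower (14.3%). Most of these changes were small, with 1379 genes at least 1.5-fold higher (9.22%) and 217 at least 1.5-fold lower (1.45%). At 2-fold the counts were 423 (2.83%) and 74 (0.495%), and at 4-fold 49 (0.328%) and 7 (0.0468%). All CS1 libraries were above all DMSO libraries in 5706 tested genes (38.2%) and below them in 2348 (15.7%). Groups that do not overlap were therefore common and do not by themselves set a gene apart. The median of all tested genes was shifted by 0.09, and weak changes therefore depended on the scaling. With libraries scaled to a common median, 3201 were higher and 5246 lower. Under the deposited scale and 4 other scalings alike, 3158 genes rose (21.1%) and 2123 fell (14.2%), and counts that held in all of them are called held under every scaling below. Likewise, genes given as not passing did not pass on the deposited scale, and some of them passed as lower under another scaling. Each of the 4 other scalings moved the median of all tested genes down, from 0.09 to between -0.086 and 0.058. A fall could therefore hardly be lost: 2123 of 2142 falls held, against 3158 of 5605 rises. That a fall held under every scaling thus adds little. The median of a list is given after subtraction of the median over all genes tested. Counts within a list are to be read beside the shares of all tested genes, 37.5% risen and 14.3% fallen. Abundant messages tended to be lower: of 240 genes at 500 TPM or more with DMSO, 19.6% rose and 49.6% fell.

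The largest rises included surface molecules, chemokines and inhibitors of growth or inflammation. VWA5A, which encodes a protein with a von Willebrand factor A domain (chromosome 11, 124115362 to 124147721, GRCh38), stood at 46.7, 46.0 and 28.6 TPM with CS1, against 1.81, 2.14, 1.76 and 2.57 TPM with DMSO. The groups do not overlap, and the fold change was the largest under the rule for named genes (3.73, SE 0.13, adjusted p = 4.13e-11). GPR34, a receptor for a lysophospholipid, stood at 28.3, 27.4 and 21.4 TPM with CS1, against 1.08, 1.28, 1.26 and 1.38 TPM with DMSO (3.56, SE 0.12, adjusted p = 1.94e-11). CD52, a small glycoprotein of leukocyte surfaces, stood at 30.2, 37.6 and 23.1 TPM with CS1, against 1.49, 2.11, 3.11 and 2.85 TPM with DMSO. Its lowest CS1 library was several times its highest DMSO library (3.21, SE 0.18, adjusted p = 2.51e-09). CCL2, which attracts monocytes, averaged 87.3 ± 8.80 TPM with CS1 and 10.7 ± 1.53 TPM with DMSO (2.92, adjusted p = 6e-07). IL1RN, the secreted antagonist of the interleukin-1 receptor, averaged 48.9 ± 5.25 TPM with CS1 and 6.30 ± 0.674 TPM with DMSO (2.77, adjusted p = 1.64e-11). FCER2, the low-affinity IgE receptor, averaged 35.3 ± 5.82 TPM with CS1 and 4.89 ± 0.645 TPM with DMSO (2.62, adjusted p = 7.52e-11), and MMP8, a collagenase of neutrophils, averaged 31.5 ± 5.998 TPM with CS1 and 4.03 ± 0.125 TPM with DMSO (2.67, adjusted p = 6.46e-11). IER3, an early response gene, averaged 19.6 ± 3.43 TPM with CS1 and 2.33 ± 0.685 TPM with DMSO (2.64, adjusted p = 1.75e-07). The rule also took S100A8, CDKN1A, NUPR1, NCF1 and NCF1C, described below with their lists, and SNORD78, a small nucleolar RNA listed at 17.4, 17.6 and 32.4 TPM with CS1, against 0, 0, 0 and 16.2 TPM with DMSO. The SNORD78 call was lost when DMSO replicate 1, 2 or 3 or CS1 replicate 2 or 3 was left out (adjusted p between 0.0502 and 0.0728).

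**Figure D1:**
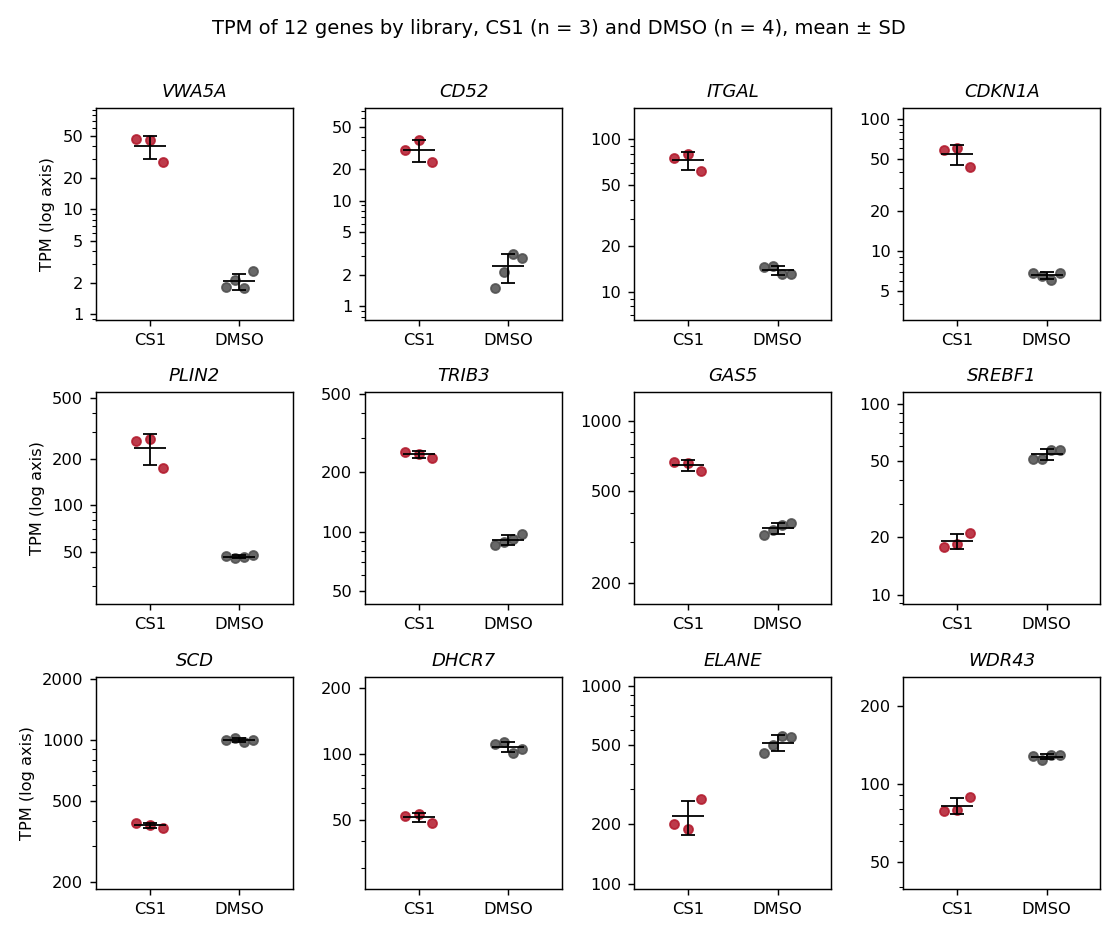
TPM of 12 genes in each CS1 library (left, n = 3) and each DMSO library (right, n = 4), on log axes; dots are libraries and bars the mean ± SD. In each of the 12 panels the CS1 and DMSO libraries do not overlap, with the widest gap for VWA5A and a narrow one for WDR43. Such a separation was common among tested genes (38.2% with CS1 higher and 15.7% with CS1 lower).

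Genes of mature monocytes and macrophages rose together (18 of 24 listed genes were tested). Of 18 tested members 17 rose, 14 of them under every scaling, and 0 fell, with a relative median of 1.32. Markers of this kind were also lists of the earlier account of these data, so the direction is not independent evidence. FCER1G, the signalling chain shared by Fc receptors, stood at 499, 529.5 and 428 TPM with CS1, against 137, 135, 136 and 138 TPM with DMSO. The lowest CS1 library was well above the highest DMSO library (1.82, SE 0.064, adjusted p = 3.83e-11). Its partner adaptor TYROBP averaged 7.58 ± 0.713 TPM with CS1 and 1.34 ± 0.280 TPM with DMSO (1.88, adjusted p = 3.11e-09). CSF1R, the receptor for macrophage colony-stimulating factor, averaged 4.86 ± 0.537 TPM with CS1 and 0.637 ± 0.0846 TPM with DMSO (1.84, adjusted p = 4.42e-09). The scavenger receptor CD36 averaged 445 ± 7.92 TPM with CS1 and 169 ± 8.78 TPM with DMSO (1.39, adjusted p = 1.2e-08). S100A8, a calcium-binding protein, averaged 64.9 ± 5.55 TPM with CS1 and 6.80 ± 1.62 TPM with DMSO (3.10, adjusted p = 4.98e-09), and S100A9, its partner in calprotectin, averaged 428 ± 14.5 TPM with CS1 and 83.2 ± 4.41 TPM with DMSO (2.35, adjusted p = 2.73e-09). MNDA, a nuclear antigen of myeloid cells, was the member that did not pass (0.17). CD14, CD163, MRC1 and MSR1, also markers of this kind, were below the filter.

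Granule genes of the promyelocyte stage were split (15 of 19 listed genes were tested), with 9 of 15 risen, 4 fallen and a relative median of 0.33. Serine proteases of the azurophil granule differed among themselves. ELANE, neutrophil elastase, stood at 200.04, 189 and 269 TPM with CS1, against 458, 498, 554 and 551 TPM with DMSO. The groups are apart, with CS1 replicate 3 nearest to DMSO (-1.24, SE 0.11, adjusted p = 1.89e-07). PRTN3, proteinase 3, averaged 59.3 ± 12.9 TPM with CS1 and 140.1 ± 12.2 TPM with DMSO (-1.24, adjusted p = 6.85e-07). CTSG, cathepsin G and also a protease of this granule, had the value 0.08 and AZU1, its inactive relative, 0.02, and neither passed. CAMP, the cathelicidin peptide, averaged 10.2 ± 1.07 TPM with CS1 and 2.06 ± 0.586 TPM with DMSO (1.89, adjusted p = 4.69e-08), BPI, a protein that binds bacterial endotoxin, averaged 5.95 ± 0.140 TPM with CS1 and 2.13 ± 0.179 TPM with DMSO (1.15, adjusted p = 7.52e-10), and the granule proteoglycan SRGN averaged 1608 ± 38.6 TPM with CS1 and 1044 ± 29.8 TPM with DMSO (0.62, adjusted p = 4.57e-09). DEFA1 (1.49) has near-identical copies among which reads may be split, so its value is uncertain.

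Transcription factors of the myeloid lineage also shifted (22 of 26 listed genes were tested): 17 of 22 rose, 14 of them under every scaling, and 2 fell. CEBPE, which drives late granulocyte genes, averaged 72.8 ± 4.33 TPM with CS1 and 31.2 ± 1.59 TPM with DMSO (1.195, SE 0.047, adjusted p = 8.59e-11). CEBPB averaged 116 ± 5.11 TPM with CS1 and 70.7 ± 3.18 TPM with DMSO (0.70), KLF4 averaged 17.7 ± 1.07 TPM with CS1 and 6.70 ± 0.756 TPM with DMSO (1.28), and EGR2 averaged 3.48 ± 0.218 TPM with CS1 and 0.555 ± 0.181 TPM with DMSO (1.53). CEBPA, a factor of earlier myeloid cells, was lower (-0.25, adjusted p = 1.07e-05). Among genes of the HOXA cluster and of self-renewal (17 of 24 listed genes were tested), 5 of 17 rose and 7 fell, with a relative median of -0.23. SATB1, an organiser of chromatin, averaged 23.2 ± 1.05 TPM with CS1 and 47.7 ± 1.47 TPM with DMSO (-1.01, SE 0.053, adjusted p = 1.25e-09). The Polycomb protein BMI1 averaged 249 ± 10.8 TPM with CS1 and 389.5 ± 26.1 TPM with DMSO (-0.64, adjusted p = 1.28e-06), and the repressor GFI1 averaged 197 ± 2.85 TPM with CS1 and 291 ± 13.8 TPM with DMSO (-0.56, adjusted p = 7.01e-09). MEF2C went the other way, at 6.77 ± 0.295 TPM with CS1 and 3.51 ± 0.231 TPM with DMSO (0.79). HOXA10 did not pass (-0.02).

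Surface and adhesion genes gave some of the widest separations between the groups. Among leukocyte adhesion and migration genes (22 of 24 listed genes were tested), 19 of 22 rose, all 19 under every scaling, and 1 fell (ITGA5, -0.15). ITGAL, the alpha chain of the integrin LFA-1, stood at 75.8, 80.5 and 61.8 TPM with CS1, against 14.6, 14.8, 13.1 and 13.03 TPM with DMSO. No library of one group came near the other (2.302, SE 0.075, adjusted p = 1.92e-11). The complement receptor C5AR1 averaged 13.8 ± 2.78 TPM with CS1 and 1.63 ± 0.234 TPM with DMSO (2.48, adjusted p = 1.18e-08), the chemokine receptor CCR1 48.3 ± 6.35 TPM with CS1 and 13.5 ± 0.790 TPM with DMSO (1.76, adjusted p = 1.84e-08), and PECAM1, an adhesion molecule of leukocytes and endothelium, 54.6 ± 4.33 TPM with CS1 and 21.5 ± 0.376 TPM with DMSO (1.303, adjusted p = 2.69e-10). Of the 6 tested genes of the phagocyte NADPH oxidase, which makes superoxide, 5 rose, all under every scaling. The membrane subunit CYBB averaged 8.06 ± 0.245 TPM with CS1 and 2.69 ± 0.415 TPM with DMSO (1.305, adjusted p = 6.23e-06). NCF1 (2.66) and its pseudogene copy NCF1C (2.95) are nearly identical, so how reads were divided between them is uncertain. RAC1, which is used by cells of all kinds, did not pass (0.08), while its blood cell relative RAC2 rose (0.60).

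Structural and calcium-binding proteins followed the same direction. VIM, the intermediate filament vimentin, stood at 251.4, 252 and 230.0 TPM with CS1, against 49.5, 50.4, 55.8 and 58.5 TPM with DMSO. This was among the smallest adjusted p values of the comparison (2.17, SE 0.052, adjusted p = 1.6e-12). ANXA1, annexin A1, a regulator of inflammation, averaged 228 ± 16.7 TPM with CS1 and 39.1 ± 2.14 TPM with DMSO (2.51, SE 0.062, adjusted p = 1.6e-12). In the list of annexins, galectins and S100 proteins (22 of 23 listed genes were tested), 19 of 22 rose, 18 of them under every scaling, and 0 fell. Of cytoskeleton and lamin genes 19 of 32 rose, 11 of them under every scaling, and 2 fell, of which the actin ACTG1 had -0.19. GSN, the actin-severing protein gelsolin, averaged 30.1 ± 0.197 TPM with CS1 and 15.5 ± 0.383 TPM with DMSO (0.92, adjusted p = 3.13e-10). ACTB did not pass (-0.10).

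Sensors and effectors of inflammation rose in part. Of pattern recognition and inflammasome genes (24 of 27 listed genes were tested), 17 of 24 rose, 16 of them under every scaling, and 0 fell. NLRC4, an inflammasome sensor of bacterial proteins, averaged 7.69 ± 1.15 TPM with CS1 and 2.13 ± 0.279 TPM with DMSO (1.47, adjusted p = 6.13e-08), and LY96, the co-receptor of TLR4, averaged 3.90 ± 1.14 TPM with CS1 and 0.395 ± 0.174 TPM with DMSO (1.80, adjusted p = 1.63e-07). Sensors that did not pass included TLR7 (-0.065) and the pore-forming GSDMD (-0.061). Of NF-kB subunits, inhibitors and targets 21 of 24 rose, 16 of them under every scaling, and 0 fell. The rises included feedback inhibitors: TNFAIP3, an enzyme that ends NF-kB signalling, stood at 21.3, 21.4 and 17.8 TPM with CS1, against 8.43, 8.77, 8.05 and 8.26 TPM with DMSO. The groups do not overlap (1.17, SE 0.062, adjusted p = 1.37e-09). NFKB2 averaged 24.1 ± 1.74 TPM with CS1 and 12.2 ± 1.13 TPM with DMSO (0.93, adjusted p = 2.88e-08), BCL3 8.69 ± 2.02 TPM with CS1 and 3.08 ± 0.110 TPM with DMSO (1.23, adjusted p = 2.28e-07) and IL1B 8.68 ± 1.07 TPM with CS1 and 1.27 ± 0.342 TPM with DMSO (2.097, adjusted p = 8.13e-08). The chemokine CXCL2 (0.32) did not pass.

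Among AP-1 and immediate early genes (22 of 23 listed genes were tested), 15 of 22 rose, 12 of them under every scaling, and 1 fell (NR4A2, -0.38). FOSL2, a partner of JUN in AP-1, stood at 50.5, 51.3 and 44.1 TPM with CS1, against 16.1, 16.4, 17.0 and 17.1 TPM with DMSO. The CS1 libraries were all above the DMSO libraries (1.49, SE 0.065, adjusted p = 2.36e-10). JUN averaged 68.5 ± 3.86 TPM with CS1 and 26.8 ± 1.18 TPM with DMSO (1.32, adjusted p = 1.5e-05), whereas FOS (0.53) and EGR1 (-0.076) did not pass. Without DMSO replicate 3, FOS had 0.81 (adjusted p = 0.000673). Feedback genes of RAS and MAPK signalling (13 of 16 listed genes were tested) rose in 8 of 13 cases, 7 of them under every scaling, and fell in 0. The phosphatases DUSP4 and DUSP6, which switch off MAP kinases, averaged 43.5 ± 2.07 TPM with CS1 and 20.04 ± 0.771 TPM with DMSO (1.08, adjusted p = 8.58e-10), and 62.8 ± 4.58 TPM with CS1 and 30.97 ± 1.89 TPM with DMSO (0.997, adjusted p = 0.000118). SPRY2 averaged 32.9 ± 2.32 TPM with CS1 and 19.5 ± 0.292 TPM with DMSO (0.73, adjusted p = 1.26e-05). ETV4 (0.01) and ETV5 (0.23) did not pass. Receptors for growth factors and cytokines were higher in 19 of 25 cases, 14 of them under every scaling, and lower in 3. IL2RG, the common gamma chain, averaged 407 ± 45.8 TPM with CS1 and 178 ± 15.5 TPM with DMSO (1.18, adjusted p = 6.17e-09), and IGF1R, the receptor for insulin-like growth factor, was among the lower ones (-0.64, adjusted p = 3.34e-07).

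**Figure D2:**
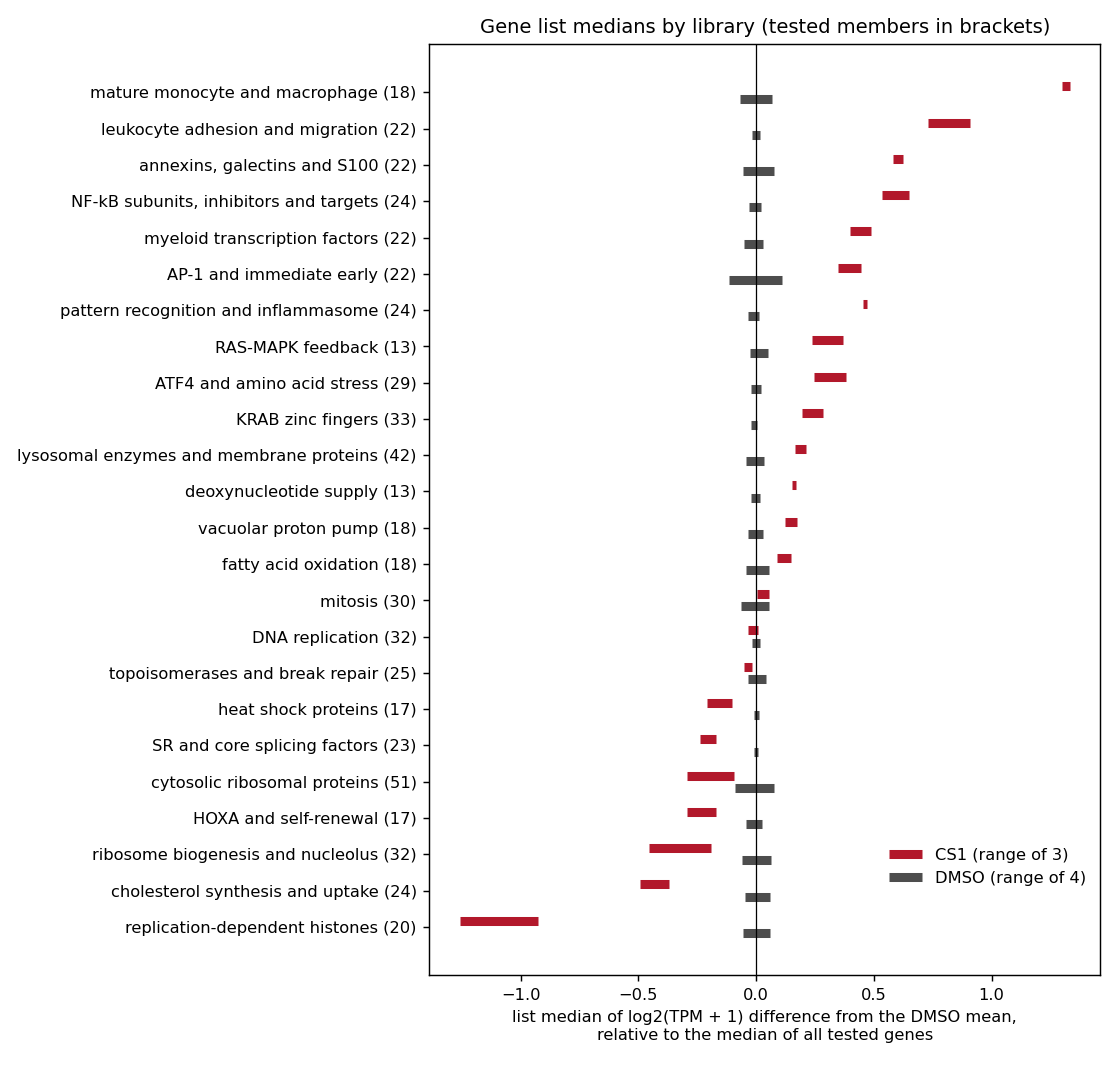
Median over the tested members of 24 gene lists (numbers in brackets) of the difference from the DMSO mean on log2(TPM + 1), minus the same median over all genes tested; bars span the CS1 libraries (upper) and the DMSO libraries (lower). The monocyte list lies farthest to the right (relative median 1.32) and the histone list farthest to the left (-1.01), while mitosis, DNA replication and topoisomerase lists lie within or beside the DMSO range.

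The cell cycle inhibitor p21 was among the largest rises. Its gene CDKN1A (chromosome 6, 36676460 to 36687339, GRCh38) stood at 57.7, 60.6 and 43.2 TPM with CS1, against 6.82, 6.51, 6.04 and 6.85 TPM with DMSO. The groups are far apart (2.85, SE 0.13, adjusted p = 4e-10).

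The list of the G1 to S transition holds cyclins, their kinases, inhibitors of these, retinoblastoma proteins and E2F factors. Of 23 tested genes of this list 14 rose (60.9%, against 37.5% of all tested genes), 9 of them under every scaling. Falls numbered 5 (21.7%, against 14.3% of all tested genes). The inhibitors CDKN1A, CDKN2A, CDKN2C and CDKN2D and the retinoblastoma gene RB1 were among the rises. CCNE2, a cyclin that starts S phase, stood at 106, 113 and 94.5 TPM with CS1, against 48.5, 49.5, 49.0 and 49.7 TPM with DMSO. All CS1 libraries were well above the DMSO libraries (1.07, SE 0.10, adjusted p = 6.08e-07). E2F2 averaged 88.4 ± 4.76 TPM with CS1 and 44.2 ± 0.615 TPM with DMSO (0.98, adjusted p = 4.25e-08) and the repressor E2F8 averaged 94.0 ± 8.75 TPM with CS1 and 53.6 ± 3.41 TPM with DMSO (0.80, adjusted p = 5.59e-08). CCND2, cyclin D2, was the largest fall of the list, at 16.3, 15.4 and 18.8 TPM with CS1, against 32.7, 32.3, 36.0 and 36.8 TPM with DMSO. Its groups do not overlap either (-0.99, SE 0.064, adjusted p = 8.7e-09). The inhibitor CDKN1B was also lower (-0.28, adjusted p = 0.000227). The other D cyclins rose: CCND3, far more abundant than CCND2, averaged 1664 TPM with CS1 and 1059 TPM with DMSO (0.65, adjusted p = 8.82e-06). CCND1, at low levels, had 0.52 (adjusted p = 0.000707).

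Genes of DNA precursor supply rose in a larger share than all tested genes, while the replication machinery was near the shares of all tested genes. Of 13 genes of deoxynucleotide supply 9 rose (69.2%, against 37.5% of all tested genes), 6 of them under every scaling, and 2 fell (15.4%, against 14.3%). RRM2, the small subunit of ribonucleotide reductase, stood at 969, 983 and 805 TPM with CS1, against 515, 526, 479 and 495 TPM with DMSO. The lowest CS1 library was clearly above the highest DMSO library (0.86, SE 0.094, adjusted p = 2.29e-06). SAMHD1, which breaks deoxynucleotides down, averaged 13.7 ± 3.18 TPM with CS1 and 5.32 ± 0.308 TPM with DMSO (1.196, adjusted p = 8.75e-07), and CDA, cytidine deaminase, averaged 41.7 ± 0.859 TPM with CS1 and 20.3 ± 1.97 TPM with DMSO (1.01, adjusted p = 1.81e-08). Of 32 replication genes 13 rose, 8 of them under every scaling, and 5 fell. The clamp loader subunits RFC1 and RFC2 rose (0.45, and 0.38), whereas the clamp PCNA (-0.22, adjusted p = 0.0194) and the helicase subunits MCM4 (-0.25, adjusted p = 0.0212) and MCM6 (-0.23, adjusted p = 0.0225) fell. Without CS1 replicate 3 these calls were lost (adjusted p = 0.0641 for PCNA, 0.0659 for MCM4 and 0.0593 for MCM6), and that of MCM6 also without CS1 replicate 2 (0.0561) or DMSO replicate 2 (0.0556). The helicase subunits MCM2, MCM3, MCM5 and MCM7 did not pass, with values between -0.10 and 0.018. MCM7 passed as lower under median, median ratio and quantile scaling (between -0.14 and -0.28) and in a fit of the CS1 and DMSO libraries alone (adjusted p = 0.0144), and MCM2 passed as lower under median scaling (-0.18, adjusted p = 0.0455). The relative median of the list was -0.023, and its shares of rises (40.6%) and falls (15.6%) were near those of all tested genes. An 8-letter E2F site (TTTCCCGC, both strands) was in 7 of 28 promoters of the list found in RefSeq. It was in 1.66% of all 27305 promoters (2.61% of those of tested genes), and 3 of 11 risen and 1 of 4 fallen genes had it.

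Mitosis genes were mixed as well: 16 of 30 rose (53.3%), 7 of them under every scaling, and 6 fell (20%). Among all tested genes 37.5% rose, 21.1% under every scaling, and 14.3% fell. CDC25B, a phosphatase that starts mitosis, stood at 139.9, 140.5 and 143 TPM with CS1, against 84.2, 83.0, 79.2 and 81.2 TPM with DMSO. Neither group spread widely (0.78, SE 0.027, adjusted p = 3.64e-11). The kinase CDK1 averaged 191 ± 6.68 TPM with CS1 and 146 ± 4.92 TPM with DMSO (0.38, adjusted p = 4.34e-07), KIF2C, a microtubule depolymerase, 224 ± 0.771 TPM with CS1 and 157 ± 5.65 TPM with DMSO (0.51, adjusted p = 7.15e-09), and NUSAP1, a spindle protein, 568 ± 34.0 TPM with CS1 and 367 ± 25.8 TPM with DMSO (0.63, adjusted p = 9.75e-07). KIF20A, a kinesin of cytokinesis, was the largest fall (-0.54, adjusted p = 7.05e-06). Also lower were the kinetochore proteins BUB1 (-0.31) and CENPE (-0.32) and CDC20, which activates the anaphase-promoting complex (-0.22). CCNB1 and CCNA2 did not pass (-0.01, and -0.074), but CCNA2 passed as lower under each of the 4 other scalings (between -0.11 and -0.25) and CCNB1 under 3 of them (between -0.12 and -0.19).

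Genes of the DNA damage response were examined because of the known action of bisantrene on DNA. Among damage sensors and checkpoint genes 10 of 23 rose (43.5%), 3 of them under every scaling, and 4 fell (17.4%). Among topoisomerases and break repair genes 9 of 25 rose (36%), 4 of them under every scaling, and 4 fell (16%). These shares were near those of all tested genes, of which 37.5% rose, 21.1% under every scaling, and 14.3% fell. Both relative medians were near 0 (-0.018, and -0.054). BRCA1, a scaffold of recombinational repair, averaged 59.6 ± 7.19 TPM with CS1 and 38.3 ± 3.80 TPM with DMSO (0.62, adjusted p = 4.32e-05), EXO1, which resects broken ends, 76.8 ± 8.27 TPM with CS1 and 48.7 ± 2.04 TPM with DMSO (0.64, adjusted p = 5.76e-06), and RBBP8, which starts resection, 85.9 ± 7.18 TPM with CS1 and 55.2 ± 1.41 TPM with DMSO (0.63, adjusted p = 5.45e-07). XRCC6, a Ku subunit of end joining, fell (-0.29, adjusted p = 0.000593). The topoisomerase II genes had opposite signs: TOP2A, the form of dividing cells, averaged 381 ± 26.4 TPM with CS1 and 305 ± 30.2 TPM with DMSO (0.32, adjusted p = 0.00544), a call lost with median scaling (adjusted p = 0.088), and TOP2B, the form that resting cells also have, averaged 317 ± 7.43 TPM with CS1 and 385 ± 21.4 TPM with DMSO (-0.28, adjusted p = 0.00138). TOP3A, another topoisomerase, was higher (0.30, adjusted p = 7.37e-05). The damage kinases ATM (-0.0045) and ATR (0.06) did not pass.

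Targets of ATF4, the transcription factor of amino acid and integrated stress, were mostly higher. Of 29 tested members (29 of 31 listed genes were tested) 23 rose, 18 of them under every scaling, and 2 fell. TRIB3, a pseudokinase of this pathway, stood at 255, 249 and 236 TPM with CS1, against 85.2, 88.8, 91.2 and 97.0 TPM with DMSO. The groups do not overlap (1.44, SE 0.053, adjusted p = 5.2e-11). NUPR1, a stress-induced nuclear protein, averaged 19.4 ± 0.579 TPM with CS1 and 2.25 ± 0.476 TPM with DMSO (2.67, SE 0.14, adjusted p = 1.22e-09), ATF5 92.9 ± 3.01 TPM with CS1 and 38.9 ± 3.49 TPM with DMSO (1.24, adjusted p = 7.51e-10) and PPP1R15A, which reverses the translation block, 144 ± 2.45 TPM with CS1 and 48.9 ± 5.65 TPM with DMSO (1.55, adjusted p = 2.47e-09). WARS, the tryptophanyl-tRNA synthetase, averaged 118 ± 6.86 TPM with CS1 and 55.3 ± 1.23 TPM with DMSO (1.08, adjusted p = 5.59e-11), while 9 of 23 tRNA synthetases rose (39.1%) and 3 fell, near the shares of all tested genes. The message of ATF4 itself was slightly lower (-0.12, adjusted p = 0.0432), a call lost without DMSO replicate 3 or 4 or any CS1 replicate (adjusted p between 0.0888 and 0.126). This call was also lost with a replicate block (0.0822) and in a fit of the CS1 and DMSO libraries alone (0.064). The same held with no filter on low values (0.0634) and with eBayes without trend (0.067). The amino acid carrier SLC7A5 did not pass (0.01). A C/EBP-ATF element (TGATGCAA, both strands) was in 1 of 23 promoters of the list, that of CHAC1, against 0.923% of all promoters (0.517% of those of tested genes).

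Other arms of protein stress moved less. Of 22 genes of endoplasmic reticulum chaperones and the unfolded protein response 12 rose, 5 of them under every scaling, and 6 fell. ERN1, the sensor IRE1, averaged 9.03 ± 0.465 TPM with CS1 and 3.60 ± 0.132 TPM with DMSO (1.12, adjusted p = 1.19e-07), and SEL1L, of the degradation complex, 68.6 ± 3.12 TPM with CS1 and 44.0 ± 2.08 TPM with DMSO (0.63, adjusted p = 2.66e-07), while XBP1, whose message IRE1 splices, was lower (-0.15, adjusted p = 0.00829). Of 17 heat shock genes 5 rose, 0 of them under every scaling, and 5 fell, all 5 under every scaling. HSPA8, the constitutive HSP70, stood at 1278, 1248 and 1399 TPM with CS1, against 1824, 1848, 1941 and 2032 TPM with DMSO. Its groups do not overlap (-0.55, SE 0.078, adjusted p = 3.45e-05). Antioxidant genes under NRF2 were divided: 8 of 21 rose and 6 fell, with the risen share near that of all tested genes. FTH1, the ferritin heavy chain, averaged 1358 ± 136 TPM with CS1 and 559 ± 38.6 TPM with DMSO (1.28, SE 0.061, adjusted p = 5.48e-10), and HMOX1, which degrades haem, averaged 34.7 ± 8.08 TPM with CS1 and 11.1 ± 1.33 TPM with DMSO (1.54, adjusted p = 1.88e-06). The thiol proteins PRDX1 and TXN fell (-0.43, and -0.16). Of 14 genes of iron handling 6 rose (42.9%, near the share of all tested genes) and 0 fell, with a relative median of 0.015. With FTH1 and HMOX1, the biliverdin reductases BLVRA (0.61, adjusted p = 2.6e-08) and BLVRB (0.60, adjusted p = 4.7e-10) rose, but the iron importer TFRC (-0.18) and exporter SLC40A1 (0.15) did not pass.

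Genes of cholesterol synthesis mostly fell and those of fatty acid synthesis were split, while genes of lipid droplets and fatty acid oxidation rose more often. Of 24 tested genes of cholesterol synthesis and uptake 18 fell, all under every scaling, and 1 rose, 0 under every scaling, with a relative median of -0.41. SREBF1, the SREBP factor of fatty acid synthesis (chromosome 17, 17810399 to 17837002, GRCh38), stood at 17.7, 18.4 and 21.0 TPM with CS1, against 51.2, 51.7, 57.6 and 57.4 TPM with DMSO. Each CS1 library was well under the lowest DMSO library (-1.47, SE 0.099, adjusted p = 1.46e-08). Of 14 genes of fatty acid synthesis and desaturation 6 fell, all under every scaling, and 4 rose, with a relative median of -0.11. SCD, the stearoyl-CoA desaturase (chromosome 10, 100347124 to 100364834, GRCh38), stood at 390.3, 381 and 369 TPM with CS1, against 994, 1022, 972 and 993 TPM with DMSO. Spread within each group was small beside the gap (-1.39, SE 0.044, adjusted p = 1.64e-11). FASN, fatty acid synthase, averaged 65.4 ± 4.82 TPM with CS1 and 164 ± 3.26 TPM with DMSO (-1.32, SE 0.11, adjusted p = 1.66e-07), and FADS2, a desaturase of polyunsaturated fatty acids, averaged 115 ± 3.16 TPM with CS1 and 247 ± 6.37 TPM with DMSO (-1.09, adjusted p = 4.46e-08). In the sterol pathway DHCR7 was the largest fall (-1.06, SE 0.056, adjusted p = 1.36e-09), followed by SQLE (-0.77) and MVK (-0.67), enzymes of the pathway. SREBF2, the SREBP factor of sterol synthesis, fell less (-0.40, adjusted p = 3.32e-06). ACLY, which supplies acetyl-CoA, did not pass (-0.039). A sterol element (TCACNCCAC, N any base, both strands) was in 1 of 18 promoters of the cholesterol list and 0 of 13 of the fatty acid list. It was in 1.15% of all promoters (1.11% of those of tested genes).

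Several genes of lipid droplets and of fatty acid oxidation were higher, with small list medians. PLIN2, which coats lipid droplets, stood at 263, 272 and 175 TPM with CS1, against 46.7, 45.3, 45.8 and 47.5 TPM with DMSO. CS1 replicate 3 was lower than the other CS1 libraries and still several times any DMSO library (2.3005, SE 0.12, adjusted p = 1.36e-09). In the list of lipid droplets and sphingolipids 11 of 17 rose, 5 of them under every scaling, and 2 fell, with a relative median of 0.16. SOAT1, which makes cholesterol esters, averaged 52.2 ± 4.26 TPM with CS1 and 30.6 ± 1.34 TPM with DMSO (0.75, adjusted p = 3.49e-08), and the lipases MGLL and PNPLA2 averaged 90.8 ± 1.40 TPM with CS1 and 51.7 ± 3.32 TPM with DMSO (0.80, adjusted p = 4.34e-09), and 44.2 ± 0.0954 TPM with CS1 and 30.6 ± 0.788 TPM with DMSO (0.52, adjusted p = 3.27e-08). Of 18 genes of fatty acid oxidation 11 rose, 7 of them under every scaling, and 2 fell, with a relative median of 0.12. ACADVL, the dehydrogenase for very long chains, averaged 165 ± 11.1 TPM with CS1 and 92.7 ± 2.22 TPM with DMSO (0.82, SE 0.041, adjusted p = 8e-10), and ETFB, which carries its electrons, 174 ± 6.72 TPM with CS1 and 102 ± 1.81 TPM with DMSO (0.76, adjusted p = 2.37e-09). PPARG, a nuclear receptor of lipid uptake, averaged 63.0 ± 5.88 TPM with CS1 and 22.1 ± 1.003 TPM with DMSO (1.47, SE 0.056, adjusted p = 6.46e-11), and PPARGC1A, a coactivator, was one of the 2 that fell (-0.50, adjusted p = 0.00203). PLTP, the phospholipid transfer protein and a target of the LXR receptors, averaged 53.9 ± 3.41 TPM with CS1 and 25.4 ± 2.22 TPM with DMSO (1.06, adjusted p = 3.97e-08), but the LXR targets LPCAT3 (0.05) and APOE (-0.17) did not pass. ABCA1 and ABCG1, cholesterol exporters, were below the filter.

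**Figure D3:**
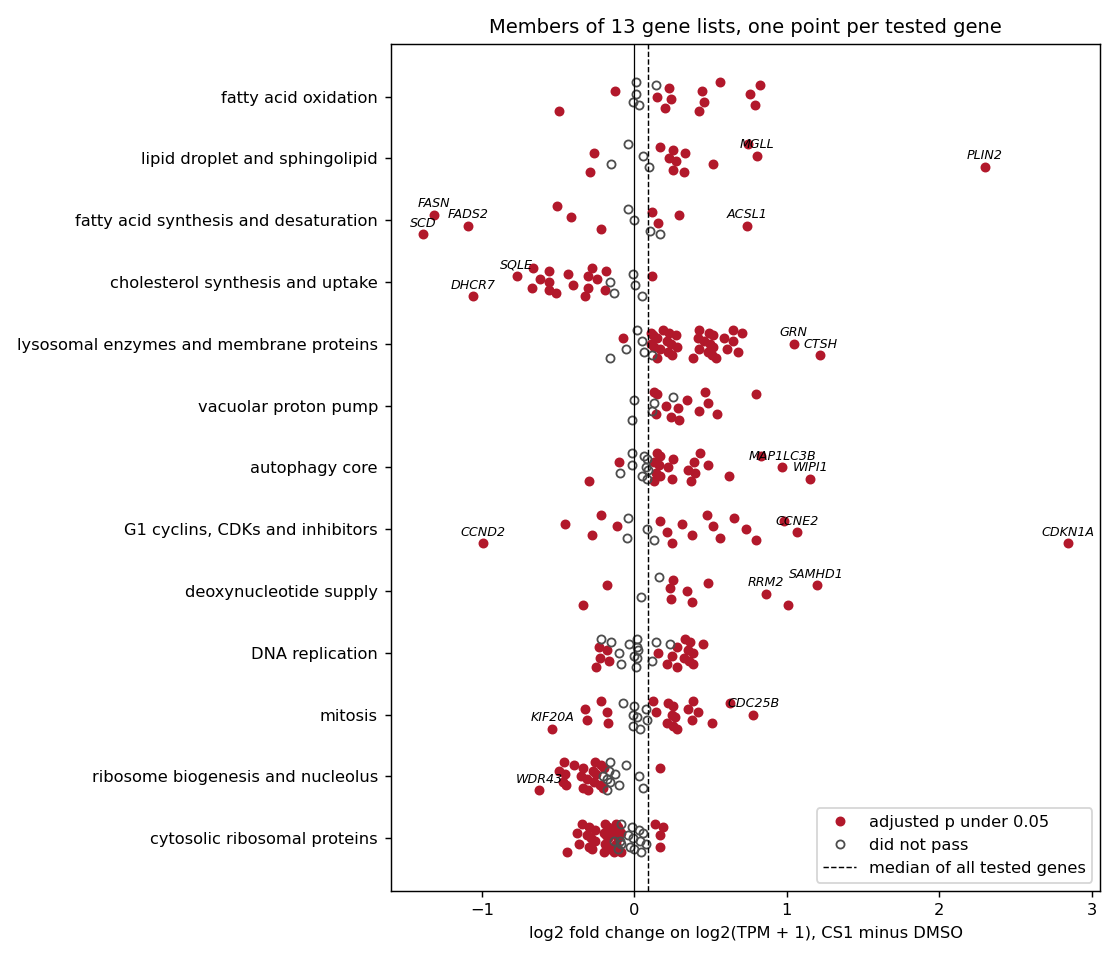
Log2 fold change of each tested member of 13 gene lists, CS1 minus DMSO; filled points passed (adjusted p under 0.05), open points did not, and the dashed line marks the median of all tested genes (0.09). Cholesterol synthesis and nucleolar genes lie mostly left of both lines and lysosomal genes right of them, while replication and mitosis genes lie on both sides.

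Lysosomal genes were higher as a group by small amounts. Of 42 tested members (42 of 44 listed genes were tested) 35 rose, 22 of them under every scaling, and 1 fell, with a relative median of 0.18. CTSH, a cysteine protease, stood at 209, 208 and 196 TPM with CS1, against 83.0, 87.0, 87.9 and 90.5 TPM with DMSO. The groups are well separated (1.22, SE 0.035, adjusted p = 8.33e-12). GRN, progranulin, averaged 545 ± 22.7 TPM with CS1 and 264 ± 8.89 TPM with DMSO (1.04, adjusted p = 1.64e-11), PSAP, the saposin precursor, 427 ± 10.1 TPM with CS1 and 266 ± 5.91 TPM with DMSO (0.68, adjusted p = 1.25e-09), and CTSB, another protease, 402 ± 12.5 TPM with CS1 and 267 ± 5.29 TPM with DMSO (0.59, adjusted p = 7.86e-10). NPC1 and NPC2, which move cholesterol out of the lysosome, did not pass (0.06, and 0.05). Of 18 subunits of the vacuolar proton pump, which acidifies lysosomes, 13 rose, 6 of them under every scaling, and 0 fell, with ATP6V0D1 the largest (0.80, adjusted p = 3.21e-08). TFEB, the factor that drives many lysosomal genes, averaged 253 ± 2.77 TPM with CS1 and 164 ± 2.94 TPM with DMSO (0.62, SE 0.027, adjusted p = 2.43e-10). Of 31 autophagy genes 20 rose, 10 of them under every scaling, and 2 fell. MAP1LC3B, a coat protein of autophagosomes, averaged 121 ± 4.10 TPM with CS1 and 61.3 ± 1.61 TPM with DMSO (0.97, SE 0.035, adjusted p = 3.98e-11), WIPI1 25.4 ± 2.08 TPM with CS1 and 10.8 ± 0.283 TPM with DMSO (1.15, adjusted p = 1.18e-09) and the cargo receptor SQSTM1 252 ± 11.9 TPM with CS1 and 142 ± 9.15 TPM with DMSO (0.83, adjusted p = 4.52e-08), while ATG5 (0.08) and ATG7 (-0.01) did not pass.

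The palindrome TCACGTGA, the core of the element that TFEB binds, was searched for on both strands of RefSeq promoters (mostly upstream of the start of the gene, 300 bases each, GRCh38.p14). It was in 6 of the 30 lysosomal promoters found and in 1.04% of all 27305 promoters (1.85% of those of tested genes). All 6 genes (CTSA, GAA, GALNS, LAMP1, MCOLN1 and CLN3) were among the risen ones, as were 24 of the 30 lysosomal genes with a promoter, but of the 6 MCOLN1 alone rose under every scaling. CTSA, GAA, GALNS and LAMP1 had values under 0 with libraries scaled to a common median. The call of GAA was also lost without DMSO replicate 1 or 2 or any CS1 replicate (adjusted p between 0.0528 and 0.0949), and that of GALNS without DMSO replicate 2 or CS1 replicate 3 (0.0529 and 0.0721). A match is a description of the sequence only. The promoters of MCOLN1 and LAMP1 are shown because each holds the palindrome more than once near the start of the gene. MCOLN1, a calcium channel of the lysosome, averaged 19.9 ± 0.399 TPM with CS1 and 12.4 ± 0.485 TPM with DMSO (0.64, adjusted p = 2.98e-05). LAMP1, its main membrane glycoprotein, averaged 577 ± 3.45 TPM with CS1 and 514 ± 12.7 TPM with DMSO (0.17, adjusted p = 0.000479), a rise that did not hold under every scaling. Capitals mark the palindrome, and the stretches are chr19:7522374-7522673 on the plus strand and chr13:113296989-113297288 on the plus strand.
MCOLN1: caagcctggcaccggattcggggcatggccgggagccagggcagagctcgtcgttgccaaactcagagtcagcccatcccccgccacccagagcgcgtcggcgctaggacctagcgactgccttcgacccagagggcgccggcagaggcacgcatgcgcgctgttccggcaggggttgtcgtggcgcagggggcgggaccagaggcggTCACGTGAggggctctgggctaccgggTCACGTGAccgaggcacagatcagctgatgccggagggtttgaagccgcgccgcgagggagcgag
LAMP1: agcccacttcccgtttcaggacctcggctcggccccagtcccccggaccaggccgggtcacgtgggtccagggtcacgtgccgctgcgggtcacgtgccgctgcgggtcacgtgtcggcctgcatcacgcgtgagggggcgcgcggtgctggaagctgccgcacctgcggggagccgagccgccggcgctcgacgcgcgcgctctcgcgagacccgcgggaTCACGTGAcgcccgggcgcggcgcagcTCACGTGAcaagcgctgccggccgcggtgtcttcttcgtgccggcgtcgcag

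Genes of the nucleolus were lower. Of 32 tested genes of ribosome biogenesis 20 fell, all under every scaling, and 1 rose, 0 under every scaling, with a relative median of -0.33. Such genes were also part of the earlier account of these data. WDR43, a factor of the small subunit, stood at 78.4, 79.3 and 89.0 TPM with CS1, against 127, 123, 129 and 129 TPM with DMSO. Every CS1 library was under every DMSO library, with CS1 replicate 3 the nearest (-0.63, SE 0.065, adjusted p = 1.5e-06). WDR12, a factor of the large subunit, averaged 51.6 ± 3.43 TPM with CS1 and 70.6 ± 2.18 TPM with DMSO (-0.45, adjusted p = 2.93e-06), and NCL, nucleolin, had a value of -0.46, adjusted p = 0.000577. FBL, the fibrillarin methyltransferase, averaged 492 ± 40.9 TPM with CS1 and 674 ± 41.0 TPM with DMSO (-0.46, adjusted p = 2.15e-05). The polymerase I subunit POLR1B fell (-0.47). NOP56 (-0.18), NOP2 (-0.10) and DKC1 (-0.057) did not pass, but all 3 passed as lower under median scaling (-0.36, -0.28 and -0.23) and the median ratio. The E-box core CACGTG, both strands, which MYC is known to bind, was in 9 of the 25 promoters of this list found in RefSeq, against 7.43% of all promoters (10.1% of those of tested genes). Of the 16 fallen genes with a promoter 4 had it, and the E-box core is contained in the lysosomal palindrome above. FBL and WDR43 are shown because both fell and hold the core within a few bases after the start of the gene, on the minus strand at chr19:39846330-39846629 and on the plus strand at chr2:28894417-28894716 (GRCh38.p14, core in capitals).
FBL: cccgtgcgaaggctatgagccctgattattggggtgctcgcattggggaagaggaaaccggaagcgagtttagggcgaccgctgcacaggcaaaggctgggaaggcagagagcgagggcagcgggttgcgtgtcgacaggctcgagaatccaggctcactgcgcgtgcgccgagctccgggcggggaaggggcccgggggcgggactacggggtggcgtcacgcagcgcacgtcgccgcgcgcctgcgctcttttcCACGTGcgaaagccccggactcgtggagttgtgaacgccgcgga
WDR43: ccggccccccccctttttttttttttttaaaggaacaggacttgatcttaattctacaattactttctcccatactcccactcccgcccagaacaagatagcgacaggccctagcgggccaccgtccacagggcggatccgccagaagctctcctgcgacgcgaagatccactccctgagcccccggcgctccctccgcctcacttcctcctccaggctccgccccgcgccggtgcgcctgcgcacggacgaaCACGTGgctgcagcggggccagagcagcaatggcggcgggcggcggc

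Ribosomal proteins were slightly lower. Of 51 messages of cytosolic ribosomal proteins 32 fell, 24 of them under every scaling, and 4 rose, 0 under every scaling, with a relative median of -0.21. RPL22 had the smallest adjusted p, at 261 ± 19.0 TPM with CS1 and 354 ± 17.0 TPM with DMSO (-0.44, SE 0.047, adjusted p = 1.92e-06). The CS1 libraries ranged from -0.29 to -0.09 in the list median and the DMSO libraries from -0.09 to 0.08, so the separation was narrow. Among translation factors 7 of 27 rose (25.9%) and 10 fell (37.0%), with EIF3E (-0.48, adjusted p = 6.87e-07) and EIF4B (-0.36, adjusted p = 2.06e-06) down and EIF1 up (0.53, adjusted p = 1.16e-05). Of 38 mitochondrial ribosomal proteins 8 rose (21.1%) and 14 fell (36.8%). Of 41 nuclear-encoded genes of oxidative phosphorylation 8 rose (19.5%), 1 of them under every scaling, and 10 fell (24.4%), by up to -0.40 (ATP5D). Among all tested genes 37.5% rose and 14.3% fell. Splicing factors leaned the same way, with 11 of 23 lower and 3 higher. HNRNPA1 averaged 641 ± 24.8 TPM with CS1 and 872 ± 10.1 TPM with DMSO (-0.44, SE 0.035, adjusted p = 8.69e-08), and SRSF1 (-0.35), SRSF2 (-0.42) and SRSF3 (-0.29) fell, whereas the kinases CLK1 (0.47, adjusted p = 7.27e-06) and CLK4 (0.47, adjusted p = 5.33e-06) rose. Of 23 genes of purine and pyrimidine synthesis 4 rose, 0 under every scaling, and 10 fell, among them UCK2 (-0.32, adjusted p = 3.92e-06), PFAS (-0.43) and DHODH (-0.32).

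Of 16 noncoding RNAs, host genes of small nucleolar RNAs and nuclear RNAs such as NEAT1 and MALAT1, 4 rose (25%) and 5 fell (31.25%). Among all tested genes 37.5% rose and 14.3% fell. GAS5, a host gene with a message degraded during translation, stood at 668, 662 and 607 TPM with CS1, against 322, 339, 355 and 363 TPM with DMSO. The groups do not overlap (0.90, SE 0.066, adjusted p = 3.74e-08). ZFAS1, another host, averaged 237 ± 5.95 TPM with CS1 and 136 ± 10.5 TPM with DMSO (0.80, SE 0.065, adjusted p = 1.08e-07). NEAT1, the scaffold of paraspeckles, was lower at 30.7 ± 4.27 TPM with CS1 and 53.2 ± 5.15 TPM with DMSO (-0.78, adjusted p = 3.19e-06), MALAT1 was higher (0.44, adjusted p = 3.95e-05) and SNHG3 lower (-0.57, adjusted p = 0.000275). SNHG5, SNHG6 and SNHG8 did not pass (0.11, 0.03 and 0.06).

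Polyamine genes changed with opposite roles. SAT1 and SMOX, which break polyamines down, stood at 273, 266 and 237 TPM with CS1, against 78.2, 71.1, 81.3 and 81.8 TPM with DMSO, for SAT1, and at 20.9, 21.3 and 20.5 TPM with CS1, against 5.83, 5.82, 6.52 and 6.91 TPM with DMSO, for SMOX. Neither gene's groups overlap (1.71, SE 0.093, adjusted p = 1.67e-09 for SAT1, and 1.59, SE 0.12, adjusted p = 3.76e-08 for SMOX). The synthetic enzymes AMD1 (-0.32, adjusted p = 0.000181) and SMS (-0.18, adjusted p = 0.000179) fell, and ODC1, the first enzyme of the pathway, did not pass (-0.15). It passed as lower under each of the 4 other scalings (between -0.19 and -0.33, adjusted p between 0.00605 and 0.0458) and without CS1 replicate 3 (-0.22, adjusted p = 0.0488). Of the 11 tested polyamine genes 3 rose and 5 fell. In sugar metabolism 8 of 26 genes rose and 5 fell, in the citric acid cycle 8 of 23 rose and 3 fell, and in serine and one-carbon metabolism 8 of 16 rose and 3 fell, with relative medians of -0.024, -0.027 and 0.038. HK3, the hexokinase of myeloid cells, averaged 14.8 ± 0.217 TPM with CS1 and 5.13 ± 0.118 TPM with DMSO (1.36, SE 0.071, adjusted p = 1.1e-09), and ALDOC, an aldolase, was lower at 5.38, 4.45 and 5.95 TPM with CS1, against 13.8, 12.2, 12.1 and 12.1 TPM with DMSO. The groups of ALDOC do not overlap (-1.12, SE 0.087, adjusted p = 6.68e-08). LDHA (0.08) and PGK1 (-0.092) did not pass. CAB39L, a scaffold of the kinase LKB1, was the least of the 15 largest falls, at 49.5, 50.3 and 53.02 TPM with CS1, against 136, 128, 131 and 133 TPM with DMSO. Its groups are widely apart (-1.36, SE 0.098, adjusted p = 3.07e-08).

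Zinc finger genes of the KRAB type, which silence repeated elements, were higher. Of 33 tested members (33 of 40 listed genes were tested) 24 rose, 16 of them under every scaling, and 1 fell, with a relative median of 0.26. ZNF226 averaged 17.4 ± 1.59 TPM with CS1 and 9.59 ± 1.11 TPM with DMSO (0.80, SE 0.082, adjusted p = 1.23e-06), and ZNF100 23.5 ± 1.29 TPM with CS1 and 14.1 ± 0.712 TPM with DMSO (0.70, adjusted p = 4.87e-07). Over all 420 tested entries named ZNF, 207 rose (49.3%, 123 under every scaling) and 26 fell (6.19%), against 37.5% and 14.3% of all tested genes. Their levels were low, so these values are small in TPM.

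Genes of cell death and antigen presentation rose in larger shares than all tested genes, of which 37.5% rose, 21.1% under every scaling. Of 33 genes of the BCL2 family, caspases and death receptors 21 rose (63.6%), 10 of them under every scaling, and 1 fell (TNFRSF1A, -0.37, adjusted p = 3.78e-06). BMF, which promotes death, stood at 28.7, 29.0 and 26.0 TPM with CS1, against 9.55, 9.26, 9.69 and 10.1 TPM with DMSO. Its groups do not overlap (1.44, SE 0.059, adjusted p = 1.48e-10). BAK1 averaged 69.7 ± 0.876 TPM with CS1 and 42.4 ± 2.01 TPM with DMSO (0.71, adjusted p = 5.11e-09) and CASP8 57.8 ± 3.97 TPM with CS1 and 34.1 ± 0.535 TPM with DMSO (0.74, adjusted p = 1.81e-08), whereas BID (-0.06) and FAS did not pass. Proteasome genes leaned lower: 5 of 29 rose (17.2%, against 37.5% of all tested genes) and 10 fell (34.5%, against 14.3%). The activator subunits PSME1 and PSME2, used in antigen processing, rose (0.31, adjusted p = 8.7e-07, and 0.69, adjusted p = 1.84e-08), and PSMD1, of the regulatory particle, fell (-0.69, adjusted p = 4.47e-06). HLA-E averaged 273 ± 11.9 TPM with CS1 and 147 ± 4.73 TPM with DMSO (0.88, adjusted p = 7.4e-09) and VSIR, listed under its older symbol C10orf54, an immune checkpoint, 37.8 ± 0.690 TPM with CS1 and 22.8 ± 0.323 TPM with DMSO (0.70, adjusted p = 3.24e-09), while LGALS9 (0.06), HAVCR2 (0.02) and CD47 (-0.054) did not pass. Near-identical HLA genes make HLA values uncertain. Of 7 tested genes of MHC class I presentation 5 rose, of 4 of class II 3 rose, and of 12 immune checkpoint genes 8 rose, while 0 fell in each of these lists. Of 21 writers, erasers and readers of m6A 6 rose (28.6%), 0 under every scaling, and 4 fell (19.0%, against 14.3% of all tested genes). METTL16 fell most (-0.38, adjusted p = 3.05e-05), while METTL3 (-0.00079) and ALKBH5 (-0.053) did not pass. ALKBH5 passed as lower under each of the 4 other scalings (between -0.09 and -0.23), and METTL3 under median and quantile scaling (-0.18 and -0.14).

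Entries for histones, ribosomal RNA and other short RNA, mostly known as RNA without a poly(A) tail, made up most of the largest falls. Of 43 entries named HIST 32 fell, all under every scaling, and 0 rose. HIST1H1E, a linker histone, stood at 0.760, 0.960 and 1.06 TPM with CS1, against 7.38, 6.53, 5.96 and 5.30 TPM with DMSO, and HIST1H2BH at 0.740, 0.750 and 1.73 TPM with CS1, against 5.02, 8.59, 6.83 and 6.40 TPM with DMSO. In both the CS1 libraries were at a fraction of the DMSO libraries (-1.92, SE 0.21, adjusted p = 2.41e-06 for HIST1H1E, and -1.91, SE 0.24, adjusted p = 8.37e-06 for HIST1H2BH). HIST1H4J, whose call was lost without CS1 replicate 1 or 2 (adjusted p = 0.0511 and 0.0508), was listed at 0, 0 and 2.97 TPM with CS1, against 9.93, 10.5, 7.14 and 12.6 TPM with DMSO. The ribosomal precursor RNA45S5 stood at 192, 160.2 and 180.1 TPM with CS1, against 717, 537, 507 and 319 TPM with DMSO (-1.49, adjusted p = 0.00213), and RMRP, an RNA that processes ribosomal RNA, at 1.28, 0.97 and 0.890 TPM with CS1, against 6.22, 5.66, 5.87 and 5.06 TPM with DMSO (-1.71, SE 0.25, adjusted p = 4.47e-05). MIR6832 and MIR6777 were listed at 0 in all CS1 libraries. The DMSO libraries had 6.85, 6.23, 6.13 and 2.95 TPM for MIR6832, and 4.71, 8.57, 4.21 and 4.06 TPM for MIR6777. MIR6777 lies within SREBF1 (-1.47) and MIR6832 within PRRC2A (-0.06, which passed as lower only under the 4 other scalings), each on the strand of its host, so reads of the host message cannot be told apart from reads of the miRNA entry. Of 233 small nucleolar RNA entries 2 rose (0.858%, against 37.5% of all tested genes) and 27 fell (11.6%, near the 14.3% of all tested genes). The share of ribosomal RNA was also lower with CS1, between 1.04% and 1.34% of TPM, against 1.77% to 4.58% with DMSO. Within DMSO it did not follow every entry. DMSO replicate 4, with the lowest share (1.77%), had the lowest HIST1H1E, RMRP and RNA45S5 of the group but the highest HIST1H4J. The part of poly(A) selection in these entries was not tested. Histone copies are nearly identical, so values of single histone genes are uncertain.

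Among markers of other cells, erythroid, megakaryocyte, epithelial and fibroblast markers were low, while the sums of lymphocyte and of dendritic cell, granulocyte and mast cell markers were not low and were higher with CS1. Of 18 lymphocyte markers 9 were tested and 7 rose, and their summed level lay between 615 and 646 TPM with CS1 and between 379 and 396 TPM with DMSO. Nearly all of it came from NKG7 and CD4, which NOMO-1 expressed without treatment as well (471 ± 16.1 TPM with CS1 and 266 ± 7.74 TPM with DMSO, for NKG7), and CD3E, CD7, MS4A1 and GNLY were at 0 in all 7 libraries. Erythroid and megakaryocyte markers summed to 13.6 to 14.8 TPM with CS1 and 13.04 to 15.12 TPM with DMSO, with HBA1, HBG1 and PF4 at 0. Epithelial and fibroblast markers summed to 12.3 to 14.8 TPM with CS1 and 8.13 to 9.10 TPM with DMSO, with KRT19, KRT5, COL3A1 and LUM at 0. Markers of dendritic cells, granulocytes and mast cells summed to 378 to 394 TPM with CS1 and 188 to 238 TPM with DMSO. Most of that was TPSAB1 (359 ± 7.63 TPM with CS1 and 198 ± 22.9 TPM with DMSO), a tryptase with near-identical copies, and FCER1A and CLC were at 0. The part of these markers in other results was not tested.

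The FTO hairpin, with its own control, allowed a direct test of whether CS1 changed genes differently. FTO was lower with the hairpin: 8.12, 7.49 and 8.35 TPM in shFTO, against 31.3, 30.8 and 32.8 TPM in shNS (-1.86 on the log2 scale). The response to CS1 minus the response to the hairpin passed for 7380 genes (49.4% of those tested), 4638 of them more positive with CS1 (31%) and 2742 more negative (18.3%). Of the 1379 genes at least 1.5-fold higher with CS1, 793 (57.5%) also rose with the hairpin and 141 (10.2%) fell, against 31.9% and 24.5% of all tested genes. Of the 217 genes at least 1.5-fold lower, 39 (18%) rose and 63 (29.0%) fell with the hairpin. The hairpin control stood far from DMSO for several of the largest CS1 rises: VWA5A averaged 23.7 TPM in shNS and 2.07 TPM with DMSO, and CD52 averaged 46.02 TPM in shNS and 2.39 TPM with DMSO. NUPR1 averaged 11.4 TPM in shNS and 2.25 TPM with DMSO, and GPR34 averaged 7.91 TPM in shNS and 1.25 TPM with DMSO.

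Genes of lipid synthesis, the cell cycle and calprotectin were among those that differed from the hairpin. Most were named for a large CS1 value, which also enters the difference, so how often the difference passed among them is not a result. The lipogenic genes had positive hairpin values: SCD had -1.39 with CS1 and 0.56 with the hairpin (difference -1.95, SE 0.065, adjusted p = 4.2e-11), and FASN -1.32 with CS1 and 0.47 with the hairpin (difference -1.78, SE 0.16, adjusted p = 5.72e-07). The list median of cholesterol synthesis was -0.41 with CS1 and 0.29 with the hairpin. The genes E2F2 and RRM2 went the other way. E2F2 had 0.98 with CS1 and -0.84 with the hairpin (difference 1.82, SE 0.11, adjusted p = 8.47e-09), and RRM2 had 0.86 and -0.40 (difference 1.26, SE 0.14, adjusted p = 3.04e-06). They do not stand for S phase genes as a set: the list median of DNA replication was -0.023 with CS1 and -0.63 with the hairpin. CDKN1A rose under both, by more with CS1 (difference 2.02, SE 0.19, adjusted p = 8.51e-07). The difference for S100A9 was 2.90, SE 0.20, adjusted p = 3.46e-08, and for VIM it was 0.32, SE 0.076, adjusted p = 0.00269. LYZ was the reverse, at 1.74 with CS1 and 3.76 with the hairpin (difference -2.02, SE 0.11, adjusted p = 3.06e-09), as was SERPINB2, an inhibitor of plasminogen activators (2.005 with CS1 and 4.36 with the hairpin, difference -2.35, SE 0.23, adjusted p = 1.24e-06). For CD68 (1.44 and 1.304) the difference did not pass (0.14, SE 0.082, adjusted p = 0.19).

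**Figure D4:**
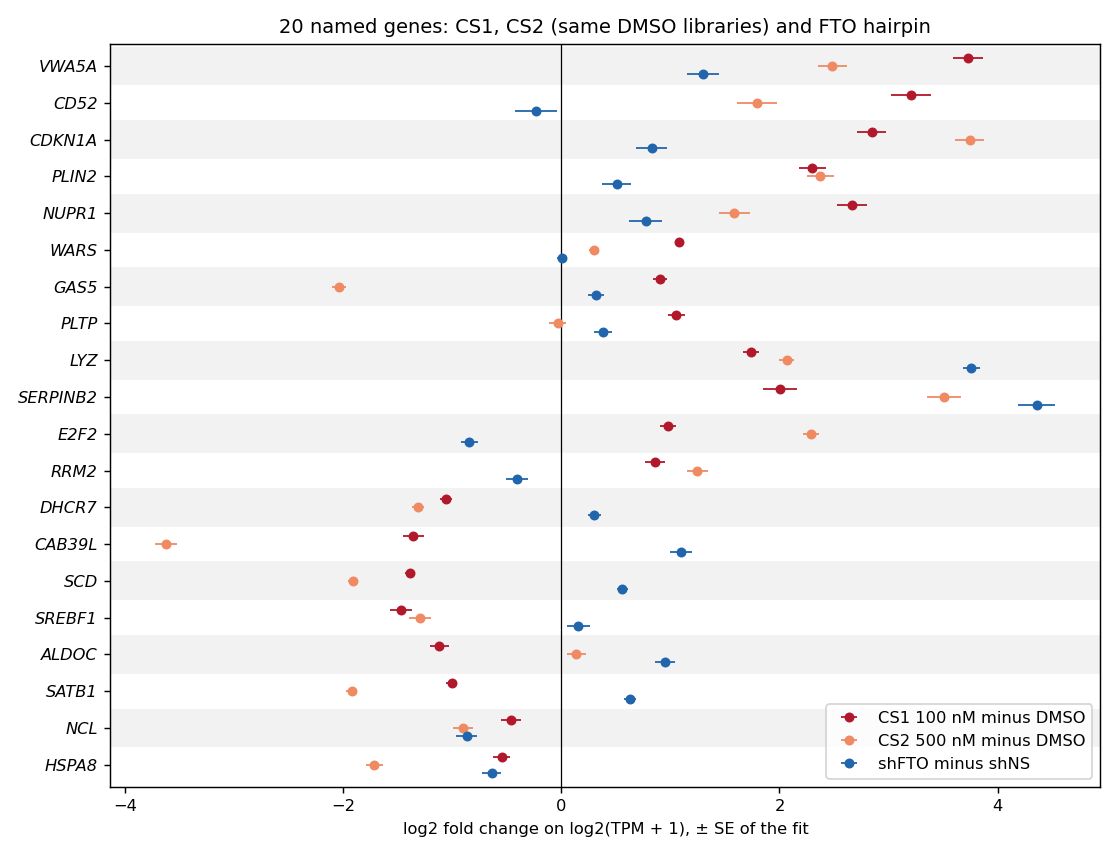
Log2 fold change (± SE of the fit) of 20 named genes for CS1 at 100 nM, for CS2 at 500 nM against the same DMSO libraries, and for the FTO hairpin against its own control. SCD, SREBF1, DHCR7 and CAB39L are negative for both compounds and positive for the hairpin (the SREBF1 hairpin value did not pass), and GAS5 is positive for CS1 and the hairpin and negative for CS2.

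CS2 was given at another dose, 500 nM, and shares its DMSO libraries with CS1. Compound and dose differ at once, so the values of each against DMSO are set side by side. A direct test of CS1 against CS2 was fitted but is not reported, because it cannot separate compound from dose. The log2 fold change of VWA5A was 3.73 with CS1 and 2.48 with CS2, and that of CD52 was 3.21 with CS1 and 1.79 with CS2. WARS had 1.08 with CS1 and 0.30 with CS2, PLTP had 1.06 with CS1 and -0.034 with CS2, and MGLL had 0.80 with CS1 and 0.31 with CS2. GAS5 and ZFAS1 had opposite signs, at 0.90 and 0.80 with CS1 and -2.04 and -1.45 with CS2. S100A8, CXCL8 and IL1B had values of 3.10, 2.55 and 2.097 with CS1, and of 6.48, 4.78 and 5.07 with CS2. Ribosomal protein messages had a list median of -0.21 with CS1 and -1.18 with CS2, and nucleolar genes -0.33 with CS1 and -0.997 with CS2. The ATF4 list had 0.30 with CS1 and -0.053 with CS2.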

How the data were processed

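RNA enriched for poly(A) from NOMO-1 cells was sequenced in 16 libraries, and the authors deposited 1 table of TPM per gene and library, normalized by them so that each library sums to 1 common total. Per the submitters' processing notes, RSEM 1.2.31 was used with GRCh38. Which aligner and which annotation were used is not given in the sources used here. All 16 columns matched 1 sample each by name. From the TPM, log2(TPM + 1) was computed and fitted in limma 3.58.1 (R 4.3.3), with 1 mean per group over all 16 libraries, eBayes with trend, two-sided tests and Benjamini-Hochberg adjustment over the 14951 genes that reached 1 TPM in 3 or more of the libraries. Adjusted p values in the text are from this fit, and 0.05 was the threshold. Nothing in the labels says whether libraries came from separate cultures, so p values measure the spread between these libraries, which may be technical.

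The comparison, its members and the 61 gene lists were chosen with earlier results of these data known. Named were the 15 largest rises and 15 largest falls among passing genes with a symbol in the annotation tables, a mean of at least 5 TPM in the higher group and no overlap between CS1 and DMSO libraries, leaving out MYC, INSIG1, MMP1, GDF15 and interferon genes. Up to 4 members per list with the smallest adjusted p followed, with members changed by at least 1 on the log2 scale and members that did not pass. A few genes under this rule are not reported here. Alternatives were other scalings, pseudocounts, filters, variance models, a replicate block and leaving out each library. Coordinates are from GENCODE on GRCh38, promoters from RefSeq, and the motifs and promoters shown were chosen with results known. The fit was also run on simulated data, and its outcome there is not reported.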

Additional observations from a re-analysis of the deposited data

Results flagged for a closer look

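In each group of 4 libraries, here DMSO, a named gene was picked out when its highest or lowest library stood apart from the nearest one by a share of the group's whole range above Dixon's critical value. Of 253 named genes with varying values, 13 (5.14%) met this, and chance gives about 1 in 20. The DMSO value that stood highest was 13.78 TPM for ALDOC in replicate 1, 31.15 TPM for ATG7, 57.3 TPM for RBBP8, 8.57 TPM for MIR6777 and 0.02 TPM for CD163 in replicate 2, 7.88 TPM for EGR1 in replicate 3, and 1.04 TPM for CHAC1 and 16.22 TPM for SNORD78 in replicate 4. The value that stood lowest was 45.28 TPM for BID and 1.28 TPM for C5AR1 in replicate 1, and 78.7 TPM for ETV5, 31.4 TPM for IGF1R and 0.01 TPM for MRC1 in replicate 3. EGR1 lay between 2.76 and 3.11 TPM in the other DMSO libraries. No single DMSO library accounts for all of them.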

How the results depend on the processing

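Directions of single strong changes held, while counts of weak changes depended on the scaling. With libraries scaled to a common median, 3201 genes were higher and 5246 lower with CS1 (793 and 601 of them by at least 1.5-fold), against 5605 and 2142 (1379 and 217) on the deposited scale. Under quantile normalization the counts were 3718 and 4267 (903 and 449). Scaling by the median ratio gave 4033 lower genes, 417 of them by at least 1.5-fold. With log2(TPM + 0.1) 368 were at least 1.5-fold lower, and with log2(TPM + 5) 718 were at least 1.5-fold higher and 92 lower. Of the 1596 genes changed at least 1.5-fold, 1565 or more passed in the same direction in each setting that tested nearly all of them, 1291 of 1291 passed under a filter at 5 TPM, and 0 had the opposite sign in any. Single values that changed sign were, with median scaling, CTSA at -0.031, GAA at -0.054, GALNS at -0.031, LAMP1 at -0.012, MCM2 at -0.18 and NPC2 at -0.13; with the median ratio, GAA at -0.0076; and with quantile normalization, GAA at -0.014 and BCL2 at -0.14. Median scaling subtracts a common shift by construction, and for the other settings the cause was not tested. Under other scalings, genes named as not passing gained calls, all as lower: with median scaling 20 (ACLY, ACTB, ALKBH5, ATG7, BID, CCNA2, CCNB1, CD47, DKC1, GSDMD, HOXA10, MCM7, METTL3, NOP2, NOP56, ODC1, PGK1, PRRC2A, TFRC and TLR7) beside MCM2, with the median ratio 17 and with quantile normalization 16 of these, and with ribosomal RNA entries removed ALKBH5, CCNA2, ODC1 and PRRC2A. In a fit of the CS1 and DMSO libraries alone ETV5 and RAC1 passed as higher and MCM7, NOP56, PGK1 and TFRC as lower. Of 61 list medians, 12 changed sign in at least 1 setting: under quantile normalization DNA replication had 0.030 and translation factors 0.023.

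Correlations between CS1 and DMSO libraries with the same replicate number were weak: their deviations correlated at -0.0093, 0.098 and 0.10. Of 15 libraries numbered 1 to 3, 8 correlated best with their own number. The count for unpaired libraries was not worked out, so no conclusion on pairing is drawn. With a replicate block 5406 genes were higher and 2082 lower (1361 and 242 by at least 1.5-fold), and the difference from the hairpin passed for 4628 more positive and 2872 more negative genes. Read depth is unknown from TPM, so the counting error of low values could not be set apart.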
